A study of Mus musculus with 6 samples.

Results

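The genes described here are the zinc exporters *Slc30a1*, *Slc30a3*, *Slc30a4*, *Slc30a5*, *Slc30a6*, *Slc30a7*, and *Slc30a9* and the metallothioneins *Mt1*, *Mt2*, and *Mt3*. They are 10 of the 53715 genes in an RNA-Seq table of the mouse cerebellum. They were chosen by name and not by a rule on measured values, but with earlier results of these data known. Every animal was a male mouse of 4 weeks, of the strain C57BL/6 in the labels and C57BL/6J in the study's methods. The *Slc39a8*-NSKO group (n = 3) carried floxed *Slc39a8* alleles and a *Syn-Cre* transgene, in which the synapsin promoter drives Cre recombinase in neurons, so that glial, vascular, and choroid plexus cells kept the gene. The control group (n = 3) is labelled WT, while the study's text names *Slc39a8* fl/fl mice as the controls of this cross, and the counts cannot tell these apart. *Slc39a8* encodes ZIP8, which carries zinc, iron, and manganese into the cytosol. Each library was made from the whole cerebellum of 1 mouse, and in such bulk samples fewer cells of a type and less RNA per cell cannot be told apart.

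Most SLC30 proteins (ZnTs) move zinc out of the cytosol, either across the plasma membrane or into vesicles and organelles. Metallothioneins are small proteins rich in cysteine that bind zinc and copper ions in the cytosol. When free zinc rises, the zinc-finger factor MTF-1 binds metal response elements and switches on *Mt1*, *Mt2*, and *Slc30a1*, so that these mRNAs are widely read as a sign of the zinc that a cell holds. In the brain, *Mt1* and *Mt2* are mainly products of astrocytes and are also induced by glucocorticoids, whereas *Mt3* is enriched in the nervous system and responds little to metals. The comparison therefore asks whether the zinc exporters and metallothioneins changed when neurons lost a metal importer.

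None of the 10 genes passed the test for a change between genotypes. To pass, a gene needed an adjusted p below 0.05 in edgeR's quasi-likelihood test, with Benjamini-Hochberg adjustment over all 16330 genes tested. All 10 genes were tested and 0 passed, beside 16 of all genes tested (0.098%). At an unadjusted p below 0.05 there were 2 of the 10, *Slc30a3* and *Slc30a7*, both lower in *Slc39a8*-NSKO, beside 5.39% of all genes. DESeq2's Wald test and limma-voom also called 0 of the 10, with 0 and 3 at an unadjusted p below 0.05. The mice of the 2 genotypes did not overlap for 1 of the 10, *Slc30a3*, beside 10.3% of all genes, and 5.26% with *Slc39a8*-NSKO lower, as it was. The fold change was above 0 for 5 genes and below 0 for 5, with a median of 0.0083 on the log2 scale, against 0.0011 for all genes tested.

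**Figure D1:**
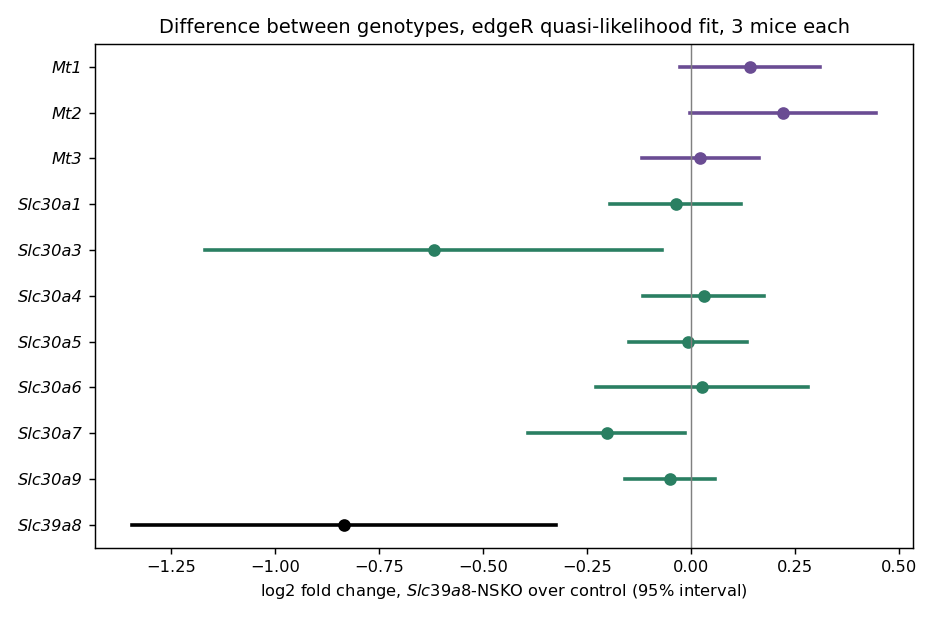
Log2 fold change of *Slc39a8*-NSKO over control (x axis) with its 95% interval for each of the 10 genes and for the targeted gene *Slc39a8* (black). The metallothioneins are purple and the exporters green. The intervals of *Slc30a3* and *Slc30a7* lie below 0 before adjustment, and those of the other 8 genes include 0.

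The targeted gene was low in both groups. Its level was 4.78, 3.20, and 2.83 CPM (the count scaled to the library's total with TMM factors) in control mice 1 to 3 and 1.90, 2.05, and 2.18 in *Slc39a8*-NSKO mice 1 to 3. All 3 knockout mice lay below all 3 controls, at 56.8% of the control mean. The log2 fold change was -0.83 ± 0.237 (SE), with an adjusted p of 0.534 in edgeR's quasi-likelihood test, so that the gene did not pass either. Without control mouse 1 the log2 fold change was -0.56. The direction was that of the labels in every mouse, and the source of the remaining reads was not tested.

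The sequences of the metallothioneins show what makes them zinc buffers. The protein-coding bases of the GENCODE transcripts (GRCm38) are printed below without the stop codon, with each cysteine codon (TGC or TGT in frame) in capitals, because the cysteines hold the metal ions. The coding parts lie in 3 exons each, on the plus strand of chromosome 8, at chr8:94179311-94180193 for *Mt1*, chr8:94172848-94173427 for *Mt2*, and chr8:94152800-94154010 for *Mt3*.
*Mt1*: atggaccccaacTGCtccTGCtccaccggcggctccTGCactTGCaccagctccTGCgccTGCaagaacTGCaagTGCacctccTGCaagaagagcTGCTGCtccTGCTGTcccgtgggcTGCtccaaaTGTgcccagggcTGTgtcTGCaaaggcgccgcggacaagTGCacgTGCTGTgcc
*Mt2*: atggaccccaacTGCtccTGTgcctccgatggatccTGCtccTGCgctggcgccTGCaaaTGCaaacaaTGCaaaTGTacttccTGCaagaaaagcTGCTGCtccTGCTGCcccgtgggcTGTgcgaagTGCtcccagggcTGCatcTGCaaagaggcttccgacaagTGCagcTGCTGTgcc
*Mt3*: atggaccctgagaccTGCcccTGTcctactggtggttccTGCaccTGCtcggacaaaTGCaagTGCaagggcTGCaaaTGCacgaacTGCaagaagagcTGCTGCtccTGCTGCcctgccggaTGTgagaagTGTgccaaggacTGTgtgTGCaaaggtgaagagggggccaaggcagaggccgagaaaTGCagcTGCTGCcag

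Each of the 3 coding sequences held 20 cysteine codons, of 61 codons in *Mt1* and *Mt2* and 68 in *Mt3*. *Mt3* has more codons with as many cysteines, so that their share was 29.4% there and 32.8% in the other two. *Mt1* and *Mt2* had the same base at 145 of 183 coding positions (79.2%). Their transcripts shared no run of identical bases longer than 20, and the longest run shared by *Mt1* and *Mt3* was 27 bases. The estimated counts of *Mt1* and *Mt3* were whole numbers in all 6 mice, and that of *Mt2* was not whole in 1 mouse, as can occur where reads are shared among genes.

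The 4 mouse metallothionein genes form a cluster of 43131 bases on chromosome 8, in the order *Mt4*, *Mt3*, *Mt2*, *Mt1*. The gap between *Mt2* (chr8:94172664-94173568) and *Mt1* (chr8:94179082-94180327) is 5513 bases, and that between *Mt3* (chr8:94152607-94154146) and *Mt2* is 18517 bases. *Mt4*, which belongs to stratified epithelia, had 0 counts in every mouse, which allows up to 3 counts in a library (counting error only). Expression in the cerebellum thus covered the 3 neighbours and was not detectable for the gene at the far end.

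Promoter sequence was taken from RefSeq on GRCm38.p6, which had an entry for all 10 genes. It was searched on both strands for the core of the metal response element, TGCACNC or TGCGCNC, with overlapping matches counted as 1. In the 250 bases before the RefSeq start there were 3 matches for *Mt2*, 2 for *Slc30a4*, and 1 each for *Mt1*, *Slc30a1*, *Slc30a5*, and 1 of the 2 listed starts of *Slc30a3*. There were 0 for *Slc30a6*, *Slc30a7*, *Slc30a9*, and *Mt3*. Of all 32851 promoter windows of this length, 21.4% held at least 1 match, 4.30% at least 2, and 0.770% at least 3. The windows of *Mt1*, *Mt2*, and *Slc30a1*, the classical MTF-1 targets, are printed on the plus strand with the matches in capitals. Those of *Mt1* and *Slc30a1* run up to the first annotated transcript base. That of *Mt2* stops at the RefSeq start (chr8:94172618), and the bases from there to its annotated start (chr8:94172664) were not searched.
*Mt1* chr8:94178839-94179081: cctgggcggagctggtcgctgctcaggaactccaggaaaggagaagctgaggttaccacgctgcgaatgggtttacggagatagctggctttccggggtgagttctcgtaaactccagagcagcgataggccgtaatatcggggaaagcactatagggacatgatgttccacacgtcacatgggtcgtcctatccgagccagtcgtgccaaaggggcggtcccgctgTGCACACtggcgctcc
*Mt2* chr8:94172368-94172617: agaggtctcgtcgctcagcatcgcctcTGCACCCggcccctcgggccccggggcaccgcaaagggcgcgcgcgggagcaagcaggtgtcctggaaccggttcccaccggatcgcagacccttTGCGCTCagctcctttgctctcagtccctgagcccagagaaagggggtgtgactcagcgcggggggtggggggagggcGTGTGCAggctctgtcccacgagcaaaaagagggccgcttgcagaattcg
*Slc30a1* chr1:191906531-191906766: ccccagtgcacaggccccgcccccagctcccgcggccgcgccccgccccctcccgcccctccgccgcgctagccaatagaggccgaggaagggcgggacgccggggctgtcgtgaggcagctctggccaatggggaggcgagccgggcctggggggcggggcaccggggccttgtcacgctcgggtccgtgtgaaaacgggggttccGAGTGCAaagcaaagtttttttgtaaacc

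The window before an annotated start does not hold all nearby matches, since the letters of a TATA box lie within the annotated metallothionein transcripts. The letters TATAAA began at base 129 of the main *Mt1* transcript, at base 90 of that of *Mt2*, and at base 107 of that of *Mt3*. The stretch before these letters held 4 further matches in *Mt1* (128 bases), 3 in *Mt2* (89 bases), and 3 in *Mt3* (106 bases). Among the first transcripts of all protein-coding genes, stretches of the same lengths held at least as many matches in 0.0236%, 0.0894%, and 0.146%, respectively. Those stretches were the first bases of each transcript and were not placed by a TATA box. The percentages thus do not compare like positions. The annotated leader of *Slc30a1* (240 bases) held 1 match, as did at least that many in 23.9% of transcripts. A match is a description of letters and not a measured binding site. The matches of *Mt1* and *Mt2*, the pair that varied most among the metallothioneins, are shown with 6 bases on either side and the match in capitals.
*Mt1* chr8:94179085-94179103: gagctcTGCACTCcgcccg
*Mt1* chr8:94179103-94179121: gaaaagTGCGCTCggctct
*Mt1* chr8:94179167-94179185: cctgctGGGTGCAaaccct
*Mt1* chr8:94179181-94179199: acccttTGCGCCCggactc
*Mt2* chr8:94172670-94172688: aagggcGTGTGCAggcggc
*Mt2* chr8:94172689-94172707: gggggcGCGTGCAtggtgc
*Mt2* chr8:94172723-94172741: agctttTGCGCTCgaccca

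The metallothioneins were by far the more abundant mRNAs per length. To compare genes, CPM was divided by the length of the gene's merged exons in kb. In control mice the mean was 473 ± 65.6 CPM per kb (SD, n = 3) for *Mt1*, 461 ± 92.8 for *Mt2*, and 206 ± 9.88 for *Mt3*. Among the exporters it was 13.1 ± 0.344 for *Slc30a9*, 9.40 ± 0.352 for *Slc30a4*, 6.29 ± 0.306 for *Slc30a5*, and 6.14 ± 0.303 for *Slc30a1*. The lowest were *Slc30a6* at 3.41 ± 0.254, *Slc30a7* at 2.42 ± 0.182, and *Slc30a3* at 1.14 ± 0.376 CPM per kb. Neighbours in this order were apart by more than their SDs except for *Mt1* and *Mt2* and for *Slc30a5* and *Slc30a1*. With the length of the longest coding transcript in place of the merged exons, *Slc30a5* (14.4 CPM per kb) stood above *Slc30a4* (9.44), and the other ranks were as before. The levels themselves moved with this choice, to 931 CPM per kb for *Mt1*, 698 for *Mt2*, 460 for *Mt3*, and 28.3 for *Slc30a9*, while that of *Slc30a1* was the same by both lengths. Libraries were primed with oligo-dT, so that a level per kb is only a rough guide across genes.

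**Figure D2:**
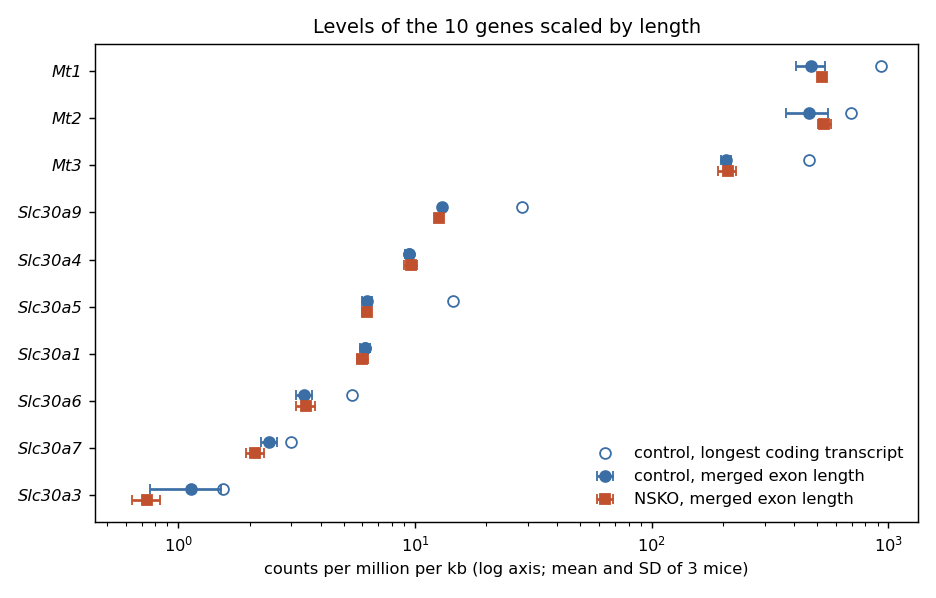
Level of each gene in CPM per kb on a log axis, as mean and SD of 3 mice. Filled symbols use merged exon length (blue circles control, orange squares *Slc39a8*-NSKO), and open circles use the longest coding transcript in controls. The 3 metallothioneins lie above every exporter by both lengths.

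*Slc30a1* (chr1:191906767-191913247), whose product ZnT1 exports zinc across the plasma membrane, was 33.3, 32.96, and 30.4 CPM in control mice 1 to 3. It was 32.3, 32.6, and 29.4 CPM in *Slc39a8*-NSKO mice 1 to 3. The groups overlapped almost fully. The log2 fold change was -0.04 ± 0.073 (SE), with a 95% interval from -0.19 to 0.12, which leaves room for a level between 0.874 and 1.09 times that of controls. The count of this gene was not a whole number in any mouse, and the antisense gene *1700034H15Rik* overlaps it on the other strand. Whether strand was used in the counting is not given in the sources used here.

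*Slc30a3* (chr5:31086106-31108237) encodes ZnT3, which fills the synaptic vesicles of glutamatergic neurons with zinc, mainly in the forebrain. It was the lowest of the 10 genes in the cerebellum, with 2.80, 2.43, and 4.43 CPM in controls and 2.35, 2.11, and 1.81 CPM in *Slc39a8*-NSKO. These levels rested on 58, 35, and 69 counts in controls and 47, 41, and 34 in *Slc39a8*-NSKO. All 3 knockout mice were below all 3 controls, by a small margin from control mouse 2, and control mouse 3 stood well above the rest. On the log2 scale the fold change was -0.62 ± 0.255 (SE), with a 95% interval from -1.17 to -0.07 and an adjusted p of 0.886 in edgeR's quasi-likelihood test. The exact two-sided permutation test gave p = 0.1, the smallest that 3 mice against 3 can give. Without control mouse 3 the log2 fold change was -0.33, so that this mouse decided the size of the difference. *Dnajc5g* and *Gm9924* overlap *Slc30a3* on the other strand.

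Markers of forebrain neurons were looked at beside *Slc30a3*, since cortex can be carried along in a dissection. The 5 forebrain markers summed to between 7.44 and 9.22 CPM in controls and between 6.46 and 7.12 CPM in *Slc39a8*-NSKO, which do not overlap. *Neurod6*, a transcription factor of cortical projection neurons, made up most of this sum, at 7.38, 6.26, and 7.90 CPM in controls and 4.71, 5.24, and 5.63 CPM in *Slc39a8*-NSKO. Its log2 fold change was -0.47 ± 0.149 (SE), with an adjusted p of 0.678 in edgeR's quasi-likelihood test. *Emx1*, a defining factor of the dorsal forebrain, was at or below 0.257 CPM in every mouse. Of the 3 forebrain markers tested, 0 passed and 1 had an unadjusted p below 0.05 in edgeR, beside 5.39% of all genes. The part of forebrain RNA in the *Slc30a3* difference was not tested.

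*Slc30a4* (chr2:122681233-122702663) encodes ZnT4, a vesicular transporter whose loss leaves the milk of mice poor in zinc. It was 52.5, 52.8, and 49.3 CPM in controls and 55.6, 53.3, and 48.9 CPM in *Slc39a8*-NSKO. The groups overlapped, and the knockout mice held both the highest and the lowest value. Its log2 fold change was 0.03 ± 0.067 (SE), with a 95% interval from -0.11 to 0.18. *4930417H01Rik* overlaps it on the other strand.

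*Slc30a5* (chr13:100802648-100833427) and *Slc30a6* (chr17:74395608-74424221) encode ZnT5 and ZnT6, which pair to carry zinc into the early secretory pathway, where alkaline phosphatases receive it. *Slc30a5* was 45.7, 43.8, and 48.3 CPM in controls and 46.3, 47.3, and 43.5 CPM in *Slc39a8*-NSKO. *Slc30a6* was 10.5, 11.3, and 9.70 CPM in controls and 10.8, 11.6, and 9.61 CPM in *Slc39a8*-NSKO. Neither partner separated the groups. Their log2 fold changes were -0.0065 ± 0.066 (SE) for *Slc30a5* and 0.03 ± 0.119 for *Slc30a6*, with 95% intervals from -0.15 to 0.14 and from -0.23 to 0.28.

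*Slc30a7* (chr3:115938973-116007406) encodes ZnT7, which works as a homodimer in the same compartment. It was 29.2, 26.3, and 25.3 CPM in controls and 25.8, 22.4, and 22.1 CPM in *Slc39a8*-NSKO. The groups overlapped by 1 mouse, since knockout mouse 1 lay above control mouse 3. Its log2 fold change was -0.20 ± 0.088 (SE), with a 95% interval from -0.39 to -0.01. In edgeR's quasi-likelihood test p was 0.0375 before adjustment and 0.908 after it. The exact permutation test gave p = 0.2. Its count was not whole in any of the 6 mice, and the pseudogenes *Gm43106* and *Gm6649* and *Mir669n* lie within it on the other strand.

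*Slc30a9* (chr5:67306955-67358443) encodes ZnT9, which exports zinc from mitochondria and was the most abundant exporter. It was 163.9, 164.2, and 156.7 CPM in controls and 158.5, 155.2, and 154.6 CPM in *Slc39a8*-NSKO. The spread was small in both groups, with a coefficient of variation (CV) of 2.64% and 1.34%, and the groups overlapped. Its log2 fold change was -0.05 ± 0.050 (SE), with a 95% interval from -0.16 to 0.06, the narrowest of the 10 genes. The 7 exporters together summed to 338, 334, and 324 CPM in controls and 332, 325, and 310 CPM in *Slc39a8*-NSKO. The groups overlapped for this sum (exact permutation p = 0.3, two-sided).

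**Figure D3:**
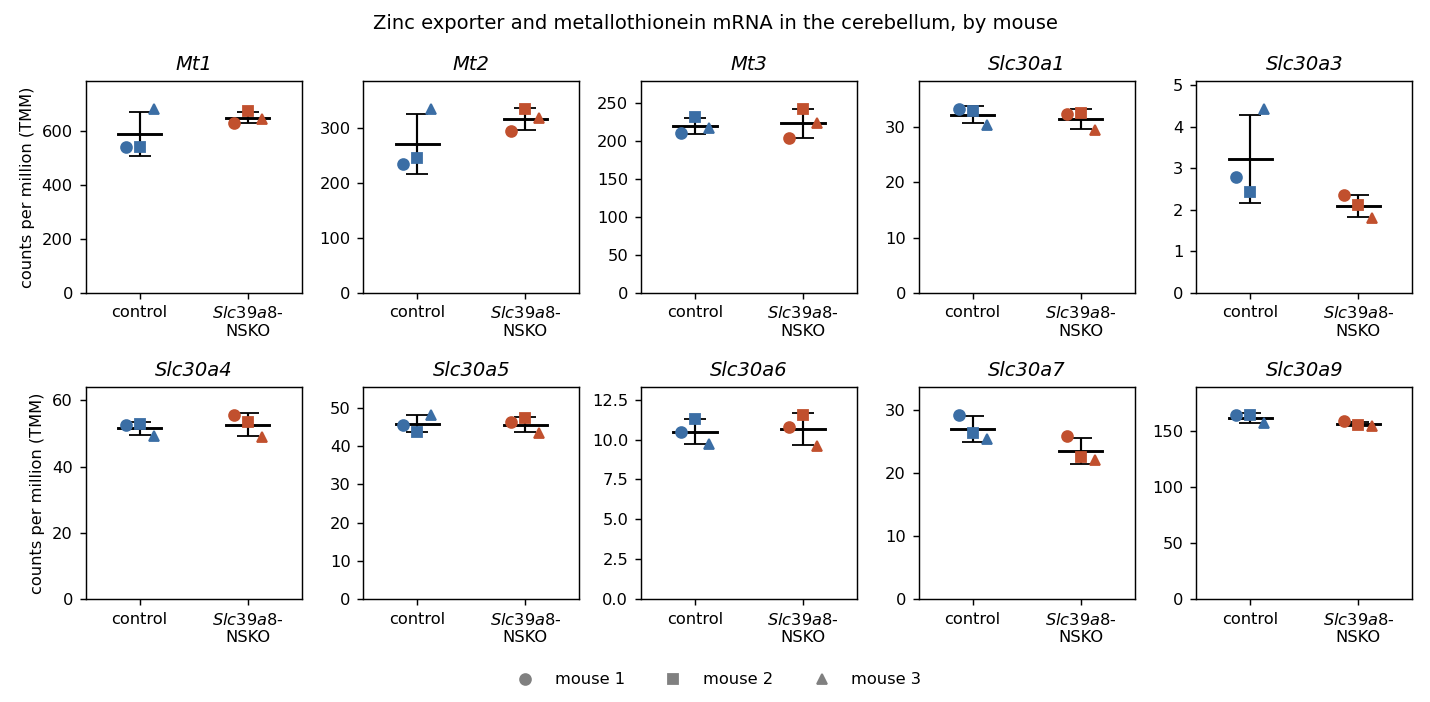
CPM (y axis, from 0) of each of the 10 genes in each mouse, with symbols for mouse 1 to 3 of a genotype and black bars for the mean and SD of 3 mice. Control mouse 3 is the highest mouse of all for *Mt1* and *Slc30a3* and lies within the range of the *Slc39a8*-NSKO mice for *Mt2*.

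*Mt1* was 542.1, 542.1, and 683.7 CPM in control mice 1 to 3 and 631.1, 673.6, and 647.0 CPM in *Slc39a8*-NSKO mice 1 to 3. All 3 knockout mice lay above controls 1 and 2, whereas control 3 was the highest of all 6. *Mt1* had a log2 fold change of 0.14 ± 0.078 (SE), with a 95% interval from -0.03 to 0.31 and an adjusted p of 0.968 in edgeR's quasi-likelihood test. The interval allows a level between 0.982 and 1.24 times that of controls.

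*Mt2* followed the same pattern, at 234.5, 244.6, and 333.6 CPM in controls and 294.9, 334.5, and 317.4 CPM in *Slc39a8*-NSKO. Controls 1 and 2 were again the lowest, and control 3 lay within the range of the knockout mice. For *Mt2* the log2 fold change was 0.22 ± 0.104 (SE), with a 95% interval from -0.0030 to 0.45. In edgeR's quasi-likelihood test p was 0.0528 before adjustment and 0.916 after it. The interval allows a level between 0.998 and 1.36 times that of controls. When no gene was filtered for low counts, *Mt2* passed with an adjusted p of 0.0178 in edgeR at a log2 fold change of 0.23, in a fit that called 178 of 27187 genes. Over all alternatives the adjusted p of *Mt2* ranged from 0.0178 to 0.99996. The antisense gene *Gm45774* overlaps *Mt2* and went the other way, with means of 5.53 CPM in controls and 2.68 CPM in *Slc39a8*-NSKO. Its log2 fold change was -1.03 ± 0.213 (SE), with an adjusted p of 0.135 in edgeR's quasi-likelihood test. Sharing of reads between the 2 genes was not tested.

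The spread among controls was wide for this pair. The CV in controls was 13.9% for *Mt1* and 20.1% for *Mt2*, against a median of 5.65% over the 10289 genes with a mean of at least 10 CPM, of which 160 had a higher CV than *Mt2*. In *Slc39a8*-NSKO it was 3.30% and 6.30%, against a median of 5.25%. Without control mouse 3 the log2 fold change was 0.26 for *Mt1* and 0.40 for *Mt2*, with adjusted p of 0.288 and 0.0808 in edgeR's quasi-likelihood test. Without control mouse 1 it was 0.09 and 0.13, and without control mouse 2 it was 0.09 for *Mt1*. The size of the difference thus depended on which control mice were used, and neither gene passed whichever single mouse was left out.

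*Mt1* and *Mt2* ran together from mouse to mouse. Their sum was 777, 787, and 1017 CPM in controls and 926, 1008, and 964 CPM in *Slc39a8*-NSKO (exact permutation p = 0.4, two-sided). *Mt2* as a percent of *Mt1* was 43.3, 45.1, and 48.8 in controls and 46.7, 49.7, and 49.1 in *Slc39a8*-NSKO (exact permutation p = 0.2). This percent was lowest in controls 1 and 2, the mice with least *Mt1*. Pearson's r between the log2 CPM of the pair was 0.992 over the 6 mice, which share the 2 genotypes and their libraries, and is given as a description.

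*Mt3*, the metallothionein of the nervous system, was 210.2, 231.0, and 217.6 CPM in controls and 203.5, 242.6, and 223.2 CPM in *Slc39a8*-NSKO. It did not share the high value of control mouse 3, and the knockout mice spanned the controls. For *Mt3* the log2 fold change was 0.02 ± 0.066 (SE), with a 95% interval from -0.12 to 0.16. *Mt3* as a percent of *Mt1* was 38.8, 42.6, and 31.8 in controls and 32.2, 36.0, and 34.5 in *Slc39a8*-NSKO (exact permutation p = 0.5).

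**Figure D4:**
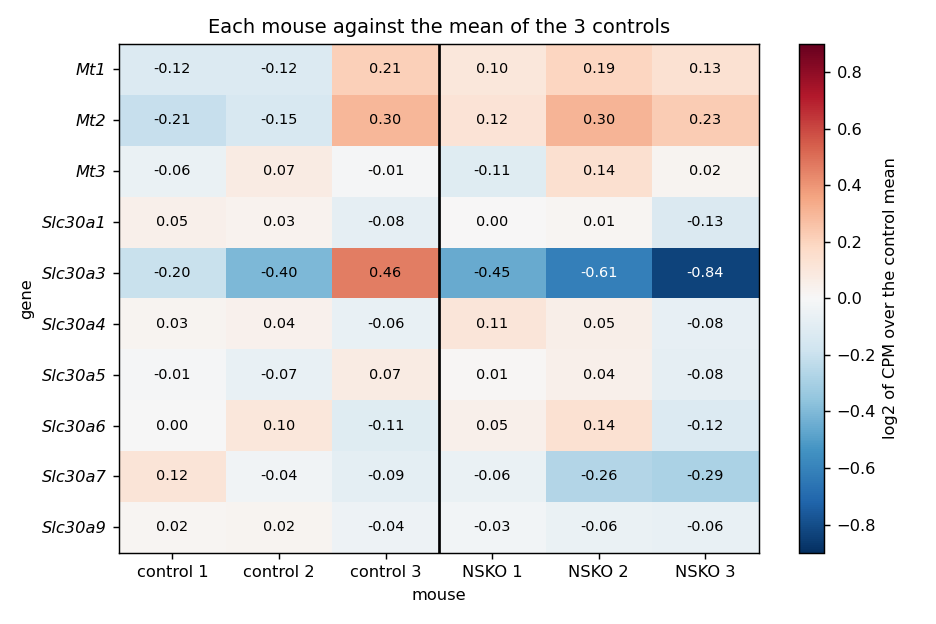
Each mouse (columns) against the mean of the 3 controls for each gene (rows), as log2 of CPM over that mean, with red above and blue below. *Mt1* and *Mt2* were 0.21 and 0.30 in control mouse 3 and 0.10 to 0.30 in the *Slc39a8*-NSKO mice, while *Mt3* stayed between -0.11 and 0.14.

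Among all genes tested with a mean of at least 10 CPM (10288 besides the gene itself), those whose log2 CPM ran most like *Mt1* over the 6 mice were *Eri1* (r = 0.994), *Mt2* (0.992), and *Nphp4* (0.983). For *Mt2* they were *Eri1* (0.995), *Mt1* (0.992), and *Nphp4* (0.986), so that the 2 lists named the same genes. For *Mt3* they were *Atp5o* (0.990), *Timm13* (0.989), and *Rps14* (0.987). For *Slc30a1* they were *Ppp3r1* (0.992), *Sap18* (0.977), and *Parg* (0.976). These values were picked as the highest of so many genes and describe the 6 mice only.

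Since brain metallothioneins lie largely in glia, glial markers are given beside them. The 10 markers of Bergmann glia and astrocytes summed to 3719, 3289, and 3755 CPM in controls and 3918, 3848, and 3857 CPM in *Slc39a8*-NSKO, which do not overlap. In edgeR, 0 of the 10 passed and 9 had a fold change above 0, with a median log2 fold change of 0.08. There were 4 with a fold change above 0 at an unadjusted p below 0.05, beside 2.25% of all genes tested, and 4 higher in every knockout mouse than in any control, beside 5.07%. *Gfap*, the intermediate filament of astrocytes, had a log2 fold change of 0.40 ± 0.097 (SE), with an adjusted p of 0.301 in edgeR's quasi-likelihood test. *Hopx*, a Bergmann glia marker, had 0.17 ± 0.058 with an adjusted p of 0.774 in edgeR. Among controls, mouse 3 was highest for both the glial sum and *Mt1*. Control mouse 2 was lowest for the glial sum, while for *Mt1* controls 1 and 2 were equal. No marker of this list was at 0 in any mouse, and its part in the *Mt1* and *Mt2* values was not tested.

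Glucocorticoids are another inducer of *Mt1* and *Mt2*. Of 9 glucocorticoid-responsive genes, 0 passed in edgeR and 3 had an unadjusted p below 0.05, beside 5.39% of all genes. There were 4 above 0 and 5 below, with a median log2 fold change of -0.075. *Ddit4*, an inhibitor of mTORC1, was 108, 106, and 118 CPM in controls and 73.8, 92.1, and 87.6 CPM in *Slc39a8*-NSKO, with no overlap and a log2 fold change of -0.39 ± 0.078 (SE, adjusted p = 0.120 in edgeR). DESeq2's Wald test called it, with an adjusted p of 0.00377. *Fkbp5*, a co-chaperone of the glucocorticoid receptor, was 8.69, 12.3, and 13.9 CPM in controls and 12.1, 16.2, and 20.9 CPM in *Slc39a8*-NSKO, with a log2 fold change of 0.51 ± 0.191 (SE, adjusted p = 0.860 in edgeR). Control mouse 3, the control with most *Mt1*, was also the control with most *Fkbp5* and most *Ddit4*. It was likewise the highest control for *Tsc22d3*, *Sgk1*, *Zbtb16*, *Pdk4*, and *Errfi1*, but not for *Klf9* or *Nfkbia*. The knockout mice, all above controls 1 and 2 for *Mt1*, were all below the controls for *Ddit4*. The direction of the fold change differed between *Ddit4* and *Fkbp5*, and the part of glucocorticoids in the *Mt1* and *Mt2* values was not tested.

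The MTF-1 list held *Mtf1* itself and 6 genes linked to it, *Gclc*, *Selenow*, *Ndrg1*, *Csrp1*, *Slc39a10*, and *Slc40a1*. *Slc39a10* is also counted among the ZIP importers. The list was not sorted by the direction in which MTF-1 acts on each gene. Its count of signs and its median therefore do not measure an MTF-1 response. Of its 7 genes, 0 passed in edgeR and 1 had an unadjusted p below 0.05, beside 5.39% of all genes. There were 3 above 0 and 4 below, with a median log2 fold change of -0.0018. *Mtf1* was 43.0, 39.8, and 41.0 CPM in controls and 41.3, 32.1, and 35.7 CPM in *Slc39a8*-NSKO, with overlap and a log2 fold change of -0.18 ± 0.086 (SE). *Slc40a1*, which encodes the iron exporter ferroportin, was 7.67, 6.81, and 6.81 CPM in controls and 6.06, 5.90, and 5.05 CPM in *Slc39a8*-NSKO. All 3 knockout mice were lower for *Slc40a1*, with a log2 fold change of -0.33 ± 0.142 (SE) and an adjusted p of 0.908 in edgeR's quasi-likelihood test.

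The ZIP importers carry metal ions into the cytosol, against the direction of most of the exporters. Of 14, 13 were tested, 0 passed in edgeR, and 2 had an unadjusted p below 0.05, beside 5.39% of all genes. These 2 were *Slc39a7* and the targeted gene *Slc39a8*, which was deleted by design. All counts of this list and its median include *Slc39a8*. There were 9 above 0 and 4 below, with a median log2 fold change of 0.09, against 0.0011 for all genes. The groups did not overlap for 5 of the 13, beside 10.3% of all genes. Of these, *Slc39a8* itself was lower, and 4 were higher in every *Slc39a8*-NSKO mouse, beside 5.07% of all genes. *Slc39a7*, which releases zinc from the endoplasmic reticulum, was 105, 109, and 102 CPM in controls and 113, 118, and 113 CPM in *Slc39a8*-NSKO. Its log2 fold change was 0.12 ± 0.054 (SE), with an adjusted p of 0.908 in edgeR's quasi-likelihood test.

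The other members of the exporter and metallothionein families added little. *Slc30a10*, a manganese exporter of the same family, was 9.22, 9.60, and 10.2 CPM in controls and 8.71, 8.11, and 10.04 CPM in *Slc39a8*-NSKO, with a log2 fold change of -0.11 ± 0.125 (SE). *Tmem163*, which encodes a further vesicular zinc exporter, had a log2 fold change of 0.07 ± 0.061. *Slc30a2*, *Slc30a8*, and *Mt4* were too low to be tested, and *Slc30a8*, the exporter of insulin granules, had 1 count in 1 mouse. Neither of the 2 tested passed or had an unadjusted p below 0.05 in edgeR. Of the 9 genes of zinc signalling and zinc enzymes, 8 were tested and 0 passed or had an unadjusted p below 0.05 in edgeR, with 3 above 0 and 5 below and a median of -0.02. Those with the smallest p were *Ap3b2*, a subunit of the AP-3 adaptor (0.08 ± 0.056), and *Alpl*, the zinc enzyme tissue-nonspecific alkaline phosphatase (-0.20 ± 0.169). Of 10 copper and oxidative-stress genes 0 passed or had an unadjusted p below 0.05, with 6 above 0 and 4 below and a median of 0.01. *Nqo1*, an NRF2 target, was 0.18 ± 0.127 and *Slc31a1*, the copper importer CTR1, was -0.07 ± 0.069. Apart from *Ddit4* in DESeq2, 0 genes of these 6 lists passed in DESeq2 or limma-voom.

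**Figure D5:**
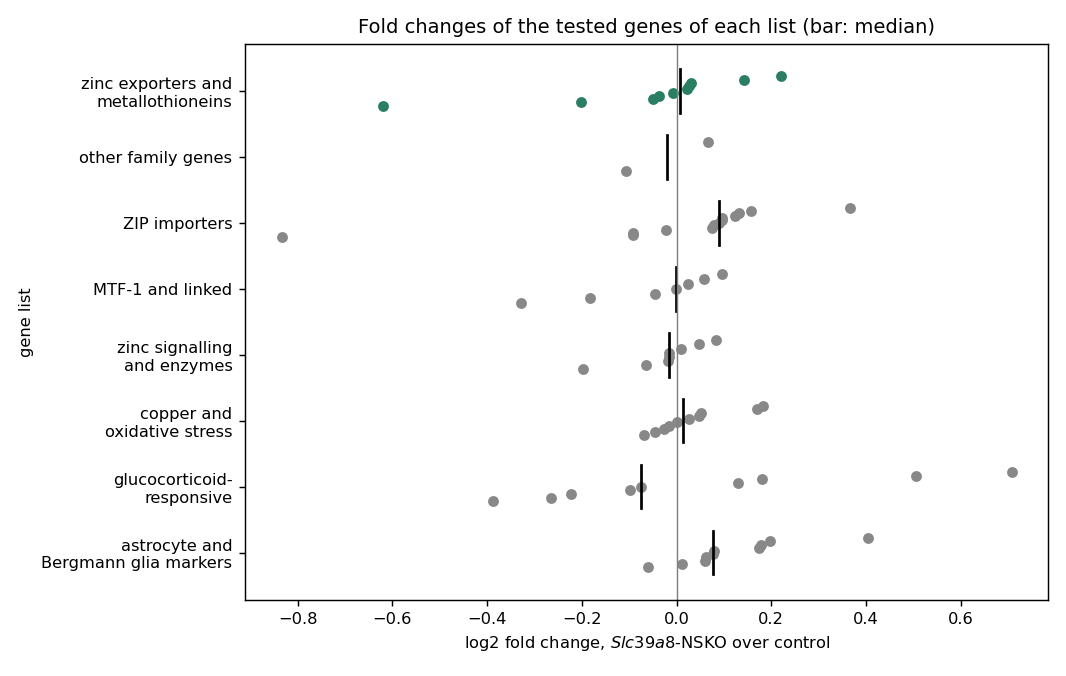
Log2 fold change (x axis) of each tested gene of 8 lists (y axis), with a black bar at the median of the list and the zinc exporters and metallothioneins in green. The medians run from -0.075 (glucocorticoid-responsive genes) to 0.09 (ZIP importers), and 0 genes of these lists passed the threshold in edgeR. Above 0 lie 9 of 13 ZIP importers and 9 of 10 markers of astrocytes and Bergmann glia. The ZIP importers include the targeted gene *Slc39a8*.

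Marker genes described the tissue. Markers of granule cells and Purkinje cells, which define the cerebellum, summed to at least 4218 and 7062 CPM in every mouse. None of the 6 markers of each passed, with medians of 0.01 and 0.04, and 0 passed among 6 markers of oligodendrocytes (median -0.07), 6 of microglia (0.15), 6 of endothelial cells (-0.09), 6 of choroid plexus (0.33), 5 of meningeal fibroblasts (0.10), and 5 of erythroid cells (0.07). At an unadjusted p below 0.05 there were 1 granule cell, 1 Purkinje cell, 1 microglial, 3 choroid plexus, and 2 fibroblast markers. Each of these had a fold change above 0, beside 2.25% of all genes tested. DESeq2 and limma-voom called 0 in these lists. Microglial markers summed to between 102 and 113 CPM in controls and between 119 and 123 CPM in *Slc39a8*-NSKO. Choroid plexus markers, which include the transthyretin gene, ranged from 777 to 1116 CPM and from 907 to 1558 CPM, and *Folr1* had a log2 fold change of 0.96 (adjusted p = 0.228 in edgeR). Cardiac muscle markers rose with genotype, with 3 of 4 tested past the threshold (*Myh6*, *Tnnt2*, and *Actc1*, of which DESeq2 called 2 and limma-voom 1), beside 0.0245% of all genes called higher. Their sum was between 0.771 and 1.88 CPM in controls and between 10.3 and 13.4 CPM in *Slc39a8*-NSKO. *Myl7*, an atrial marker, was at 0 in the controls. The part of these cell types in the values of the 10 genes was not tested.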

How the data were processed

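Cerebellar RNA of 3 mice per genotype was sequenced, 1 library for each mouse. The values deposited by the authors are expected counts for each gene, not normalized for depth or length. The submitters' processing notes name FastQC, STAR, RSEM, DESeq2, and the build mm10, and versions are not given in the sources used here. The table held 53807 entries, from which 92 spike-in sequences (at most 5 counts in a mouse) were left out. The counts on genes ranged from 14431260 to 20844267 for each mouse, and intervals cover the spread between mice.

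Counts were rounded and fitted with edgeR 4.0.16 in R 4.3.3 (TMM factors, filterByExpr, glmQLFit, glmQLFTest) with genotype as the only term. CPM values use the TMM factors. GENCODE M21 on GRCm38 contained 53620 of the 53715 genes, 51464 in the same version, and gave positions and lengths. Permutation tests were exact and two-sided. Scripts were tested on simulated data. The alternatives were DESeq2 1.42.0, limma-voom (limma 3.58.1), RLE factors, no filter, at least 10 counts in every mouse, fractional counts, a block for the replicate number, leaving out single mice, and another length definition. Offsets for GC content and length (loess span 0.3), and all alternatives of the lists, were chosen after seeing the data. The 10 genes and the lists were chosen with earlier results of these data known.

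Besides the 10 genes and *Slc39a8*, the genes named were those of each list past the threshold or, where none passed, at most 2 with the smallest p, and the 3 genes most like *Mt1*, *Mt2*, *Mt3*, and *Slc30a1*. *Mt4*, *Slc30a2*, *Slc30a8*, *Emx1*, *Myl7*, overlapping genes, and the other genes of the glucocorticoid and MTF-1 lists are exceptions to this rule. They were named with their values in view. Single values of some forebrain markers are not reported here. A figure legend of the study speaks of technical triplicates, while its methods state 3 mice for each genotype. If the samples were not separate mice, the p values would describe technical spread only.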

Additional observations from a re-analysis of the deposited data

How the results depend on the processing

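The number of the 10 genes past the threshold was 0 under every alternative except without a filter on low counts, where it was 1, *Mt2*, at a log2 fold change of 0.23 and an adjusted p of 0.0178 in edgeR. The number of all genes past the threshold was 16 and became 37 with DESeq2's Wald test, 178 without a filter, and 41 with the replicate number as a block. It ranged from 9 to 38 when 1 mouse was left out (without *Slc39a8*-NSKO mouse 2 and without control mouse 1). The number of list genes past the threshold, apart from markers, was 0 and became 1 with DESeq2, 4 without a filter, 1 with the replicate block, and 1 with offsets for GC content and length. *Ddit4* was called in these 4 fits, joined by *Fkbp5*, *Sgk1*, and *Zbtb16* without a filter. The causes were not tested.

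The log2 fold changes near 0 had no stable sign when single mice were left out. They ranged from -0.074 to 0.0087 for *Slc30a1*, from -0.0094 to 0.081 for *Slc30a4*, from -0.037 to 0.032 for *Slc30a5*, from -0.035 to 0.095 for *Slc30a6*, and from -0.041 to 0.087 for *Mt3*. With offsets for GC content and length *Slc30a5* was at 0.017. The range was -0.77 to -0.33 for *Slc30a3*, -0.28 to -0.14 for *Slc30a7*, -0.07 to -0.04 for *Slc30a9*, 0.09 to 0.26 for *Mt1*, and 0.13 to 0.40 for *Mt2*, which kept their sign under all 14 alternatives.

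Mice with the same replicate number correlated at 0.14, 0.12, and 0.01 in their deviations from the group means. The numbers were thus not taken to pair the mice. With the replicate block 0 of the 10 genes passed in edgeR. At an unadjusted p below 0.05 there were 4 of the 10 with the block, beside 1215 of all 16330 genes tested. Without the block these counts were 2 and 881. Control mice 1 and 2 correlated best with their own number and control mouse 3 did not. Precision limits these statements. The 95% interval reached a median of 0.158 to either side on the log2 scale for genes of at least 10 CPM. It reached further for *Mt1*, *Mt2*, *Slc30a6*, and *Slc30a7*, and furthest of the 10 genes for *Slc30a3*, which had 34 to 69 counts in a mouse.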
